A study of Rattus norvegicus with 12 samples.

Results

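Mast cells are tissue-resident immune cells whose cytoplasm is packed with granules. Those granules hold serine proteases (chymases and tryptases), carboxypeptidase A3 and histamine, bound to the proteoglycan serglycin. IgE on the high-affinity IgE receptor, when crosslinked by antigen, triggers their release, and the cells also make prostaglandin D2. In the bladder they lie in the lamina propria and between detrusor muscle bundles, and they are known for their part in bladder inflammation and pain. The 8 genes described here were taken by symbol from the authors' rat gene table: Cma1, Tpsab1, Tpsb2 and Cpa3 (granule proteases), Fcer1a and Ms4a2 (the alpha and beta chains of the IgE receptor), Hdc (histamine synthesis) and Hpgds (prostaglandin D2 synthesis). All 8 were among the 40154 genes listed, and all 8 were among the 17687 that passed the filter on low counts.

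RNA came from the urinary bladders of female Wistar rats aged 10 to 12 weeks, in 4 groups of 3 libraries. The first group was normal control rats, and the others were collected 7, 14 and 28 days after complete transection of the spinal cord at thoracic segment T10 per the sample labels (the series' design text gives T9-T10). The labels mention no sham operation, so surgery, paralysis and loss of cord input to the bladder cannot be told apart, and they do not say whether each library came from 1 rat. P-values therefore measure the spread between these libraries. Libraries held 26275314 to 30747936 gene counts each, and all replicate pairs differed by more than sampling noise. Bladder markers were high in every library: the umbrella-cell gene Upk2 was at 899 to 2607 TPM (the authors' transcript level, scaled by gene length and library size) and the smooth muscle gene Acta2 at 1625 to 6613 TPM. In whole tissue, fewer cells of a type and less RNA per cell cannot be told apart.

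On the rn6 build, the tryptase genes Tpsab1 (chr10:14701253-14703668, minus strand) and Tpsb2 (chr10:14722672-14724464, plus strand) lie on the same chromosome and face opposite ways. Cma1 is at chr15:34601037-34603819, Cpa3 at chr2:105016798-105047989, Fcer1a at chr13:91727253-91737106, Ms4a2 at chr1:227957363-227965312, Hdc at chr3:119057524-119075599 and Hpgds at chr4:95945356-95970666, all on the minus strand. In the table's coordinates, no other listed gene overlapped any of the 8. All are protein-coding.

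The 250 bases before the annotated start of each of the 4 protease genes are printed here because those 4 genes moved together in the data described below. The sequences are RefSeq's on the GRCr8 build, 5′ to 3′ on the gene's own strand, with GATAA, the core bound by GATA factors such as GATA2, and its reverse complement TTATC in capitals.
Cma1 (GRCr8 chr15:33390134-33390383, minus strand): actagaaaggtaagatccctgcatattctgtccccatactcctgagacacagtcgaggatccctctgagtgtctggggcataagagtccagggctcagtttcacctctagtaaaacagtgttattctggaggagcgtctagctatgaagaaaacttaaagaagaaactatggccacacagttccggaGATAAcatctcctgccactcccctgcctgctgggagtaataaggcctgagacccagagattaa
Tpsab1 (GRCr8 chr10:14867303-14867552, minus strand): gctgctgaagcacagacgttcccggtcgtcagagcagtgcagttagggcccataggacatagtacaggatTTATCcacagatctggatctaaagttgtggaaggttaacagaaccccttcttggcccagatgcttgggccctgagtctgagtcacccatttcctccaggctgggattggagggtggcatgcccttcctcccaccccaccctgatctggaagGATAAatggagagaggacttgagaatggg
Tpsb2 (GRCr8 chr10:14886060-14886309, plus strand): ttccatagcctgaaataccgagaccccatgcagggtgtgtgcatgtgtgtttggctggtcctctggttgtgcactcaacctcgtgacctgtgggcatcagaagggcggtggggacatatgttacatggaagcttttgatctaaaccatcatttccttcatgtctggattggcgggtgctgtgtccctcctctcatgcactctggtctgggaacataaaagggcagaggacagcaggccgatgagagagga
Cpa3 (GRCr8 chr2:104673238-104673487, minus strand): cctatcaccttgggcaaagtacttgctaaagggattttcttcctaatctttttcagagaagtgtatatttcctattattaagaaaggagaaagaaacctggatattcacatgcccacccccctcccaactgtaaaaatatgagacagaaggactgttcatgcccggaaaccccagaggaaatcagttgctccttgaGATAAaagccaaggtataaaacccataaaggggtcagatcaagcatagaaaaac

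Of the 8 genes, 6 had a promoter in the RefSeq table. GATAA on either strand was found in 4 of those 6, with its first printed base 63 bases before the start in Cma1, 29 and 180 bases before it in Tpsab1, 54 bases before it in Cpa3 and 93 bases before it in Fcer1a. The same letters occurred in 23.5% of the 33469 promoter stretches of that length. The E-box CATGTG (or CACATG), a form bound by the mast cell factor MITF, was found in Tpsb2, Cpa3 and Fcer1a, 3 of the 6, against 12.1% of all stretches. The palindromic E-box CACGTG was found in 0 of the 6 and in 5.59% of all stretches. CATGTG and CACATG can overlap each other, and GATAA can share at most 1 end base with an E-box. A match is a run of letters and not a measured binding site.

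The protease genes carried most of the mast cell signal and most of its change. All 4 proteases rose at day 7, by 5.61-fold (Cpa3) to 29.9-fold (Tpsab1) over control, and every library at days 14 and 28 was still above every control. The mean levels of Cma1, Tpsab1 and Cpa3 were nearer to control at days 14 and 28 than at day 7, while Tpsb2 averaged 14.5 CPM (counts scaled to library size with TMM factors) at day 14 and 14.9 CPM at day 7. The receptor chains and the histamine gene had higher mean levels at days 7 and 14 than in control, but none passed edgeR's quasi-likelihood test at any day. DESeq2 called Hdc at day 7 and Fcer1a and Ms4a2 at day 14. Hpgds was higher than control at day 28 and did not pass the test at days 7 or 14. At day 7, 4 of the 8 genes were called higher and 0 lower, where 15.6% of all genes tested were called higher and 10.5% lower. At day 14, 4 were again called higher and 0 lower, against a background of 1.45% and 0.995%. Without control replicate 1 or 2 the day 14 count was 0, and it was 1 without control replicate 3 or day 14 replicate 3. At day 28 the counts were 4 higher and 0 lower, against 11% and 7.51%. The median log2 fold change of the 8 genes was 2.07 at day 7, 1.74 at day 14 and 1.05 at day 28, and that of all genes tested was -0.01, 0.00 and 0.00. The 3 comparisons share their control libraries.

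**Figure D1:**
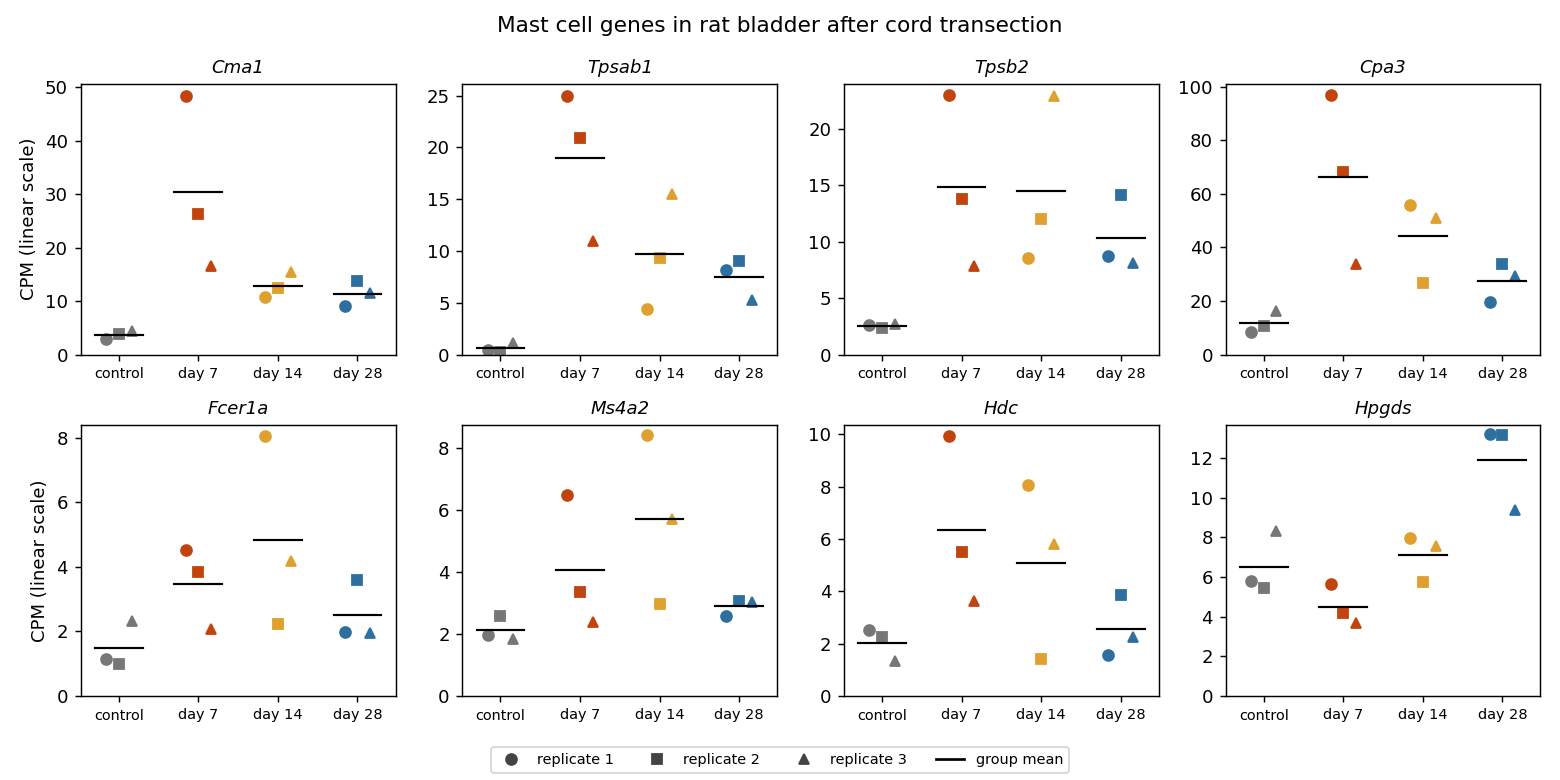
Level of each of the 8 mast cell genes in every library, as CPM (counts scaled to library size, linear scale from 0), with control and days 7, 14 and 28 along the x axis. Symbols mark the replicate number and the line is the group mean of 3 libraries. In the 4 protease panels (upper row) every injured library lies above every control library, while in the Hpgds panel only the day 28 libraries do.

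Cma1 encodes a mast cell chymase, which in humans converts angiotensin I to angiotensin II. It stood at 2.96, 3.79 and 4.47 CPM in controls. Its level was 48.4, 26.4 and 16.6 CPM at day 7, 10.7, 12.5 and 15.4 CPM at day 14, and 9.04, 13.7 and 11.4 CPM at day 28. No injured library overlapped the controls, and replicate 1 of day 7 was the highest of all 12. The log2 fold change over control was 3.02 ± 0.36 (SE) at day 7 (adjusted p = 0.000246), 1.78 ± 0.35 at day 14 (adjusted p = 0.0279) and 1.61 ± 0.34 at day 28 (adjusted p = 0.00819). The day 7 and day 28 calls held with any single library left out. The day 14 call did not hold without any 1 of the 3 controls or without replicate 3 of day 14, where its adjusted p reached 0.117.

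Tpsab1 encodes an alpha/beta tryptase, a trypsin-like protease stored as a tetramer on heparin. It had few reads in controls, with 13, 8 and 32, or 0.45, 0.29 and 1.14 CPM. At day 7 it reached 24.9, 20.9 and 10.97 CPM, at day 14 it was at 4.44, 9.28 and 15.5 CPM, and at day 28 at 8.17, 9.06 and 5.23 CPM. The lowest injured library was above the highest control. Its log2 fold change over control was the largest among the 8 genes at every day, at 4.90 ± 0.59 at day 7 (adjusted p = 0.000287), 3.94 ± 0.58 at day 14 (adjusted p = 0.0135) and 3.56 ± 0.57 at day 28 (adjusted p = 0.00184). Without control replicate 1 or control replicate 2 the day 14 call did not hold (adjusted p up to 0.0737), and the other calls held without any single library. Control replicate 3 held most of the few control reads, and without it the log2 fold changes were 5.65, 4.70 and 4.30.

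Tpsb2, the other tryptase gene, had a tighter baseline of 2.61, 2.33 and 2.68 CPM in controls. It was at 23.0, 13.8 and 7.82 CPM at day 7, at 8.59, 12.0 and 22.9 CPM at day 14 and at 8.71, 14.1 and 8.09 CPM at day 28. All 9 injured libraries were above all 3 controls, with the highest values in replicate 1 of day 7 and replicate 3 of day 14. The log2 fold changes were 2.55 ± 0.44 at day 7 (adjusted p = 0.00184), 2.51 ± 0.44 at day 14 (adjusted p = 0.0212) and 2.02 ± 0.43 at day 28 (adjusted p = 0.00845). The day 14 call did not hold without any 1 of the controls or without replicate 3 of day 14 (adjusted p up to 0.0938). The sources used here do not say how reads that match both tryptase genes were counted, so the split between Tpsab1 and Tpsb2 is uncertain.

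Cpa3, the carboxypeptidase that trims peptides and venom toxins in mast cell granules, was the highest of the 8 genes per length in every group. It had 8.35, 10.6 and 16.4 CPM in controls, 96.7, 68.1 and 33.6 CPM at day 7, 55.7, 26.6 and 50.9 CPM at day 14 and 19.7, 34.0 and 29.2 CPM at day 28. Each injured library was above each control, with a narrow gap at day 28. The log2 fold change was 2.49 ± 0.41 at day 7 (adjusted p = 0.00151), 1.91 ± 0.41 at day 14 (adjusted p = 0.0377) and 1.23 ± 0.40 at day 28, where the adjusted p of 0.0534 missed the threshold. The day 14 call did not hold without any 1 of the controls, replicate 2 of day 7, or replicate 1 or 3 of day 14 (adjusted p up to 0.146). At day 28 Cpa3 passed without replicate 1 or 3 of day 7, replicate 2 of day 14 or replicate 1 of day 28 (adjusted p down to 0.0281). With all libraries it passed at day 28 by DESeq2 (adjusted p = 0.00929), without the expression filter (adjusted p = 0.0332) and with only the groups compared in the fit (adjusted p = 0.0215).

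Both chains of the IgE receptor were present at low levels throughout. Fcer1a, the chain that binds IgE, had 1.15, 0.98 and 2.32 CPM in controls, 4.51, 3.82 and 2.06 CPM at day 7, 8.04, 2.23 and 4.18 CPM at day 14 and 1.97, 3.60 and 1.96 CPM at day 28. Each injured group overlapped the controls, because control replicate 3 was above the lowest library of every later group. The log2 fold changes of 1.22 ± 0.51 at day 7 (adjusted p = 0.0990), 1.69 ± 0.51 at day 14 (adjusted p = 0.106) and 0.75 ± 0.51 at day 28 (adjusted p = 0.342) did not pass, though DESeq2 called the day 14 change (adjusted p = 0.0165). Ms4a2, the beta chain that amplifies the receptor's signal, had 1.95, 2.59 and 1.82 CPM in controls, 6.49, 3.34 and 2.39 CPM at day 7, 8.41, 2.96 and 5.70 CPM at day 14 and 2.57, 3.06 and 3.02 CPM at day 28. Its day 14 libraries were all above the controls, and its day 7 and day 28 libraries were not. Its log2 fold changes were 0.94 ± 0.41 (adjusted p = 0.115), 1.42 ± 0.41 (adjusted p = 0.0980) and 0.44 ± 0.41 (adjusted p = 0.502) at days 7, 14 and 28. Without replicate 2 of day 14 the Ms4a2 change at day 14 passed (adjusted p = 0.0456), and DESeq2 called it with all libraries (adjusted p = 0.0147).

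Hdc, histidine decarboxylase, makes histamine from histidine. Its level was 2.51, 2.26 and 1.32 CPM in controls, 9.94, 5.49 and 3.62 CPM at day 7, 8.08, 1.41 and 5.81 CPM at day 14 and 1.57, 3.86 and 2.25 CPM at day 28. The day 7 libraries were all above the controls, whereas replicate 2 of day 14 was level with the lowest control and the day 28 libraries overlapped them. The log2 fold change was 1.64 ± 0.59 at day 7 (adjusted p = 0.0593), 1.33 ± 0.59 at day 14 (adjusted p = 0.269) and 0.33 ± 0.59 at day 28 (adjusted p = 0.744). The day 7 value passed when replicate 2 of day 14, which enters only the shared spread, was left out (adjusted p = 0.0203). With all libraries it passed by DESeq2 (adjusted p = 0.0166), without the expression filter (adjusted p = 0.0479) and with only the groups compared in the fit (adjusted p = 0.0209). Among the 8 genes, Hdc had the widest spread between the day 14 replicates, with an SD of 1.33 on the log2 scale.

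Hpgds, the haematopoietic prostaglandin D2 synthase, is known from macrophages, dendritic cells and T helper cells as well as from mast cells. It was at 5.78, 5.47 and 8.32 CPM in controls, 5.65, 4.21 and 3.66 CPM at day 7, 7.97, 5.74 and 7.58 CPM at day 14 and 13.2, 13.2 and 9.41 CPM at day 28. Replicate 1 of day 7 lay within the lower part of the controls, and replicates 2 and 3 of day 7 lay below every control. The day 28 libraries were the 3 highest of the 12. Its log2 fold change was -0.53 ± 0.24 at day 7 (adjusted p = 0.119), 0.12 ± 0.23 at day 14 (adjusted p = 0.851) and 0.87 ± 0.23 at day 28 (adjusted p = 0.0242). The day 28 call did not hold without replicate 1 or 2 of the controls or replicate 1 or 2 of day 28, where the adjusted p reached 0.0962. T and NK cell markers also moved at day 28: 5 of the 6 tested were higher, where 11% of all genes tested were. Their sum was 129 to 189 TPM at day 28, against 48.9 to 50.5 TPM in controls (43.9 to 96.2 TPM at day 7 and 51.7 to 68.8 TPM at day 14). In controls Cd4, named after its values were seen, averaged 71.9 CPM. Each other marker tested averaged 0.13 to 3.80 CPM there, so by CPM most of the control level was Cd4. The part of T cells in the Hpgds values was not tested.

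**Figure D2:**
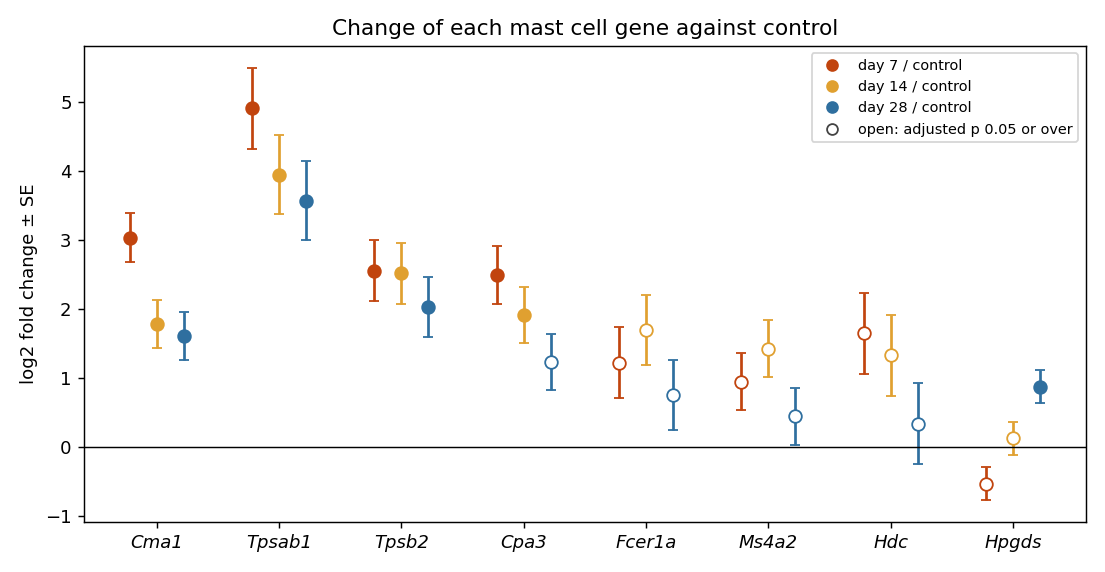
The log2 fold change (y axis) of each mast cell gene (x axis) over control at days 7, 14 and 28, from edgeR, with bars of 1 SE and 3 libraries a group. Filled points have an adjusted p under 0.05. The 4 proteases have filled points at all days except Cpa3 at day 28 (1.23), Fcer1a, Ms4a2 and Hdc have open points throughout, and Hpgds has a filled point at day 28 (0.87).

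Non-overlap with the controls, which uses no model, took in genes that the test did not call (Hdc, Ms4a2 and, at day 28, Cpa3). At day 7, 5 of the 8 genes (the 4 proteases and Hdc) had all 3 libraries above all 3 controls, where 23.6% of all genes tested did. At day 14 it was 5 of 8 (the 4 proteases and Ms4a2) against 11.5%, and at day 28 it was 5 of 8 (the 4 proteases and Hpgds) against 20.9%.

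Between the days after injury, Cma1 and Cpa3 were lower later on and Hpgds was higher. Cma1 was lower at day 14 than at day 7, averaging 12.9 ± 2.36 CPM at day 14 and 30.4 ± 16.3 CPM at day 7 (SD, n = 3 each; log2 fold change -1.24 ± 0.33, adjusted p = 0.0223). This was the only 1 of the 8 genes called between those days, where 12% of all genes were called lower and 7.59% higher. It did not pass without replicate 1 of day 7 (-0.73) or without replicate 1 or 2 of day 14 (adjusted p up to 0.0821 over these). Between day 28 and day 14, 0 of the 8 were called by edgeR's quasi-likelihood test, against 4.34% of all genes in either direction. The smallest adjusted p there were those of Hpgds (log2 fold change 0.75 ± 0.23, adjusted p = 0.0972) and Ms4a2 (-0.98 ± 0.41, adjusted p = 0.207). DESeq2 called 1 of the 8, Hpgds (adjusted p = 0.0321), and 1647 of all genes.

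Between day 28 and day 7, 3 of the 8 genes were called, where 10.8% of all genes were lower and 7.89% higher. Cma1 averaged 11.4 ± 2.32 CPM at day 28 and 30.4 ± 16.3 CPM at day 7 (log2 fold change -1.42 ± 0.33, adjusted p = 0.0127), a call that held without any single library but not with only the groups compared in the fit (adjusted p = 0.0508). Cpa3 averaged 27.6 ± 7.28 CPM at day 28 and 66.1 ± 31.6 CPM at day 7 (log2 fold change -1.26 ± 0.39, adjusted p = 0.0451). The Cpa3 groups overlapped slightly, and its call held in only 4 of the 12 fits that left out 1 library, failing without control replicate 1 or 2, replicate 1 or 2 of day 7, replicate 3 of day 14 or any day 28 library (adjusted p up to 0.146). It also failed with library totals (adjusted p = 0.0663) and with only the groups compared (adjusted p = 0.0706). Hpgds averaged 11.9 ± 2.19 CPM at day 28 and 4.50 ± 1.03 CPM at day 7 (log2 fold change 1.41 ± 0.24, adjusted p = 0.00293), without overlap and without loss of the call in any of the 12 fits. The tryptases did not pass in this comparison, with log2 fold changes of -1.34 ± 0.48 for Tpsab1 (adjusted p = 0.0745) and -0.53 ± 0.41 for Tpsb2 (adjusted p = 0.405). All 3 day 28 libraries of Tpsab1 were below all 3 day 7 libraries, and it passed by DESeq2 (adjusted p = 0.0275), with only the groups compared (adjusted p = 0.0441) and without replicate 1 of day 14 (adjusted p = 0.0420).

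Levels between genes were compared per length, as the authors' TPM. The order by mean TPM in controls was Cpa3 (16.7 ± 5.64, SD, n = 3), Cma1 (7.77 ± 1.46), Hpgds (7.21 ± 1.64), Tpsb2 (4.77 ± 0.34), Hdc (1.78 ± 0.57), Ms4a2 (1.70 ± 0.33), Tpsab1 (1.04 ± 0.74) and Fcer1a (0.90 ± 0.43). Within their SDs, Cma1 and Hpgds were level with each other, as were Hdc, Ms4a2 and Tpsab1, and Tpsab1 and Fcer1a. The order at day 7 was Cpa3 (88.0 ± 46.0 TPM), Cma1 (59.2 ± 34.4 TPM), Tpsab1 (29.4 ± 12.7 TPM), Tpsb2 (26.1 ± 14.6 TPM), Hdc (5.17 ± 2.88 TPM), Hpgds (4.60 ± 1.31 TPM), Ms4a2 (3.05 ± 1.75 TPM) and Fcer1a (1.96 ± 0.81 TPM). Tpsab1 thus ranked 3 at day 7, against 7 in controls, and Hpgds ranked 6 at day 7, against 3 in controls. Neighbours in the day 7 order were level within their SDs, except Tpsb2 above Hdc. At day 28 Hpgds ranked 4, at 13.5 ± 2.56 TPM, level within the SDs with Tpsb2 (19.7 ± 6.54 TPM) and Tpsab1 (12.7 ± 3.50 TPM).

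The 8 genes together took 0.00260% to 0.00394% of all gene counts in the controls, 0.00725% to 0.0208% at day 7, 0.00738% to 0.0128% at day 14 and 0.00659% to 0.00984% at day 28. No injured library reached down to the controls. Their summed level was 35.1 to 52.0 TPM in controls, 105 to 332 TPM at day 7, 114 to 198 TPM at day 14 and 97.7 to 145 TPM at day 28.

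Ratios between the genes were compared within libraries. The ratio of Tpsab1 to Tpsb2 TPM within a library was 0.154, 0.111 and 0.379 in controls, 0.964, 1.34 and 1.25 at day 7, 0.460, 0.686 and 0.601 at day 14 and 0.834, 0.570 and 0.575 at day 28. Every injured library was above every control, and at day 7 the tryptase genes were near equal. For each day against control, the exact permutation test of the log2 ratio gave a two-sided p = 0.1, the smallest that 3 against 3 libraries allow. Of Ms4a2 to Cpa3, the ratio was 0.0277 to 0.0401 at day 7 and 0.0627 to 0.138 in controls, so the receptor chain was lower relative to the protease in every day 7 library (exact permutation p = 0.1). Fcer1a to Cpa3 showed the same at day 7, at 0.0199 to 0.0261 against 0.0395 to 0.0603 in controls (exact permutation p = 0.1), and at days 14 and 28 both receptor ratios met or overlapped the controls. Of Cma1 to Cpa3, the ratio was 0.566 to 0.732 at day 7 and 0.398 to 0.523 in controls. These were 24 tests of 8 ratios chosen with the values known, and Benjamini-Hochberg adjustment over them gave 0.24 at the least, so none passed.

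**Figure D3:**
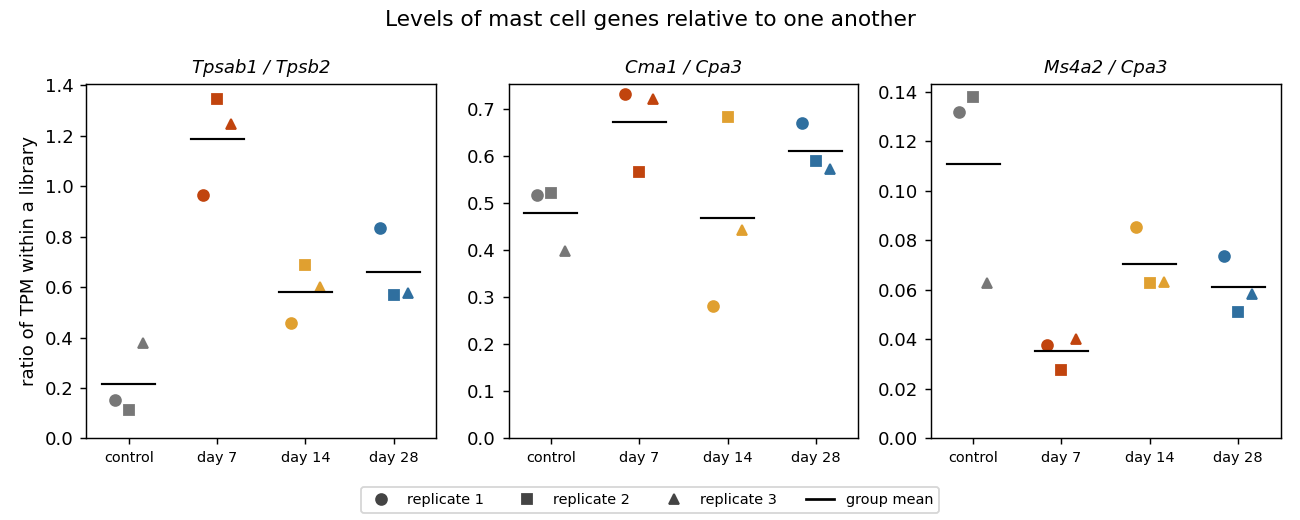
Ratios of TPM within each library (y axis, linear from 0) for Tpsab1 over Tpsb2, Cma1 over Cpa3 and Ms4a2 over Cpa3, with control and days 7, 14 and 28 along the x axis. Symbols mark replicates and lines group means. The Tpsab1 to Tpsb2 ratio was 0.111 to 0.379 in the controls and 0.460 or more in all 9 injured libraries, and the Ms4a2 to Cpa3 ratio was lowest at day 7.

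Replicates of a group did not vary independently from gene to gene. At day 7, replicate 1 was the highest and replicate 3 the lowest for all 8 genes, Hpgds included. Haemoglobin genes took 2.89% of counts in replicate 3 of day 7, against 0.156% and 0.370% in the other day 7 libraries and 0.0637% to 0.286% in controls. The part of blood RNA in these values was not tested, and the 4 day 7 protease calls held without that library. At day 14 the genes split: replicate 1 was the lowest of its group for Cma1, Tpsab1 and Tpsb2 and the highest for Cpa3, Fcer1a, Ms4a2, Hdc and Hpgds.

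That day 14 library also stood apart in another set of proteases. Mcpt1 is a chymase known in the rat from connective tissue-type mast cells, and Mcpt2 is one known from mucosal mast cells. In day 14 replicate 1, Mcpt1 was at 92.4 CPM and Mcpt2 at 269 CPM, and in the other 2 day 14 libraries Mcpt1 was at 0.28 and 0.67 CPM and Mcpt2 at 1.96 and 5.13 CPM. Controls had 1.61 to 7.25 CPM of Mcpt1 and 9.79 to 36.5 CPM of Mcpt2. Neither gene was called at any day. At day 14 the log2 fold changes of 2.94 ± 1.61 for Mcpt1 (adjusted p = 0.378) and 2.17 ± 1.44 for Mcpt2 (adjusted p = 0.479) turned to -3.08 and -2.52 without replicate 1. The sources do not say how reads shared between related Mcpt genes were counted, so their separate values are uncertain.

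**Figure D4:**
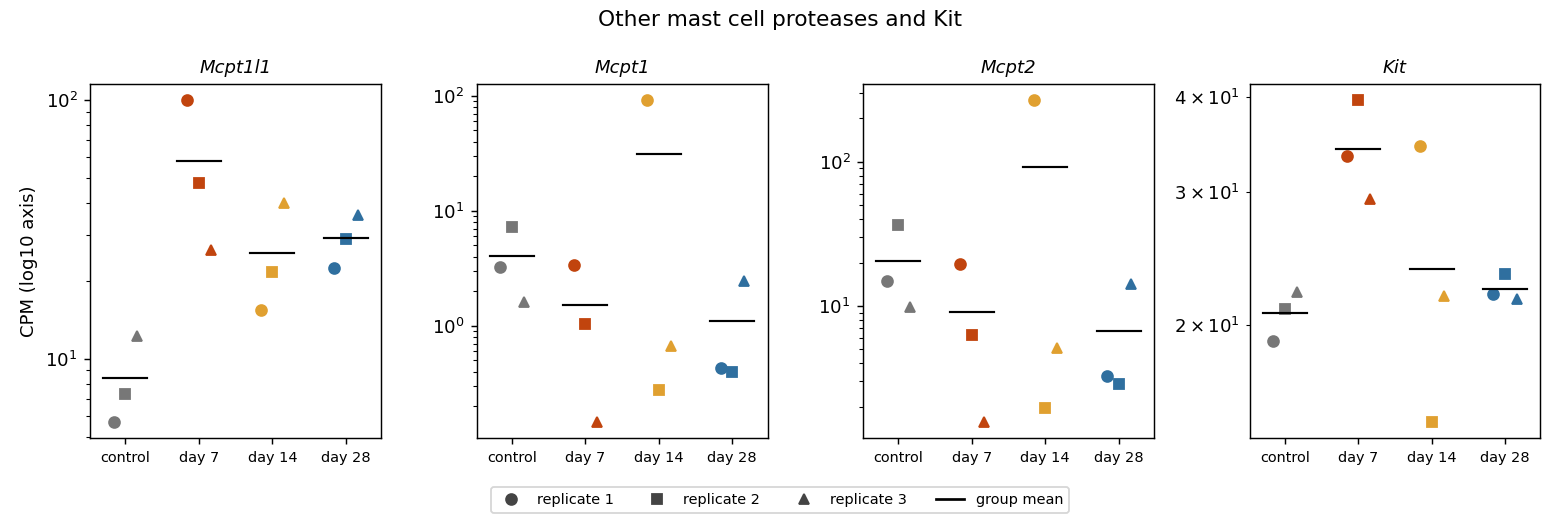
Levels of the related proteases Mcpt1l1, Mcpt1 and Mcpt2 and of the receptor gene Kit in every library, as CPM on log10 axes, with control and days 7, 14 and 28 along the x axis. Symbols mark replicates and lines group means. Mcpt1l1 is above the controls in all 9 injured libraries, while Mcpt1 (92.4 CPM) and Mcpt2 (269 CPM) are far above the other libraries in day 14 replicate 1.

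Of 16 other granule genes, 9 could be tested. At day 7, 2 were higher (Mcpt1l1 and Srgn) and 2 lower (Slc18a2 and Rab27b), where 15.6% of all genes tested were higher and 10.5% lower. At day 14, 0 were called either way, and at day 28 the counts were again 2 higher (Mcpt1l1 and Srgn) and 2 lower (Slc18a2 and Rab27b), against 11% and 7.51%. These are small counts near the shares of all genes, and the shares apply to the lists that follow as well. Mcpt1l1, a member of the Mcpt1 chymase family, had 5.67, 7.32 and 12.2 CPM in controls, 100.1, 47.7 and 26.4 CPM at day 7, 15.5, 21.6 and 40.0 CPM at day 14 and 22.4, 29.0 and 36.0 CPM at day 28. As with the 4 proteases, no injured library overlapped the controls, and replicate 1 was the highest and replicate 3 the lowest at day 7. Its log2 fold change was 2.79 ± 0.50 at day 7 (adjusted p = 0.00232), 1.61 ± 0.49 at day 14 (adjusted p = 0.107) and 1.79 ± 0.49 at day 28 (adjusted p = 0.0257). Without replicate 1 of day 7 the day 7 value was 2.13. The day 28 call was lost without control replicate 1 or 2 or day 28 replicate 2 or 3 (adjusted p up to 0.0958). Srgn, serglycin, is the granule proteoglycan of mast cells and of many other blood-derived cells, and rose by 1.72 ± 0.45 at day 7 (adjusted p = 0.0167) and 1.52 ± 0.45 at day 28 (adjusted p = 0.0357). Its calls were lost without control replicate 1 or 2 or day 7 replicate 2 at either day, and at day 28 also without control replicate 3 or day 28 replicate 2 or 3 (adjusted p up to 0.112).

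Slc18a2, the vesicular transporter that loads histamine and other monoamines into granules, went the other way. It was at 9.12, 10.9 and 5.82 CPM in controls, 3.45, 2.78 and 1.85 CPM at day 7, 5.97, 2.27 and 4.39 CPM at day 14 and 2.70, 2.70 and 2.18 CPM at day 28. Its libraries at days 7 and 28 were all below the controls. The log2 fold change was -1.68 ± 0.36 at day 7 (adjusted p = 0.00616) and -1.77 ± 0.36 at day 28 (adjusted p = 0.00659), and both calls held without any single library. Which cells of the bladder the Slc18a2 reads came from was not tested. Rab27b, a small GTPase of granule secretion that is also present in urothelium, had log2 fold changes of -1.08 ± 0.22 at day 7 (adjusted p = 0.00466) and -1.26 ± 0.22 at day 28 (adjusted p = 0.00288). Of the 6 urothelial markers, 4 were lower at each of those days, and their part in the Rab27b values was not tested.

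Of 11 genes of mast cell growth and lineage, 9 were tested, and at day 7, 4 were higher (Kit, Mitf, Tal1 and Il1rl1) and 1 lower (Gata2). At day 14, 0 were called, and at day 28 only Gata2 was, as lower. Kit, the stem cell factor receptor that mast cells need to survive, and that interstitial cells of the bladder wall also carry, was at 19.0, 21.0 and 22.1 CPM in controls, 33.4, 39.7 and 29.3 CPM at day 7, 34.5, 14.9 and 21.8 CPM at day 14 and 21.9, 23.4 and 21.6 CPM at day 28. Its day 7 libraries were all above the controls (log2 fold change 0.72 ± 0.24, adjusted p = 0.0443), but the call held in 2 of the 12 fits that left out 1 library, and each control and day 7 library was needed (adjusted p up to 0.157). Kitlg, stem cell factor itself, changed by -0.05 ± 0.20, 0.11 ± 0.20 and 0.20 ± 0.20 on the log2 scale at days 7, 14 and 28 and was not called. Tal1, a lineage transcription factor of blood and endothelium, rose by 1.24 ± 0.19 at day 7 (adjusted p = 0.000968), a call that held without any single library. Mitf (0.77 ± 0.23, adjusted p = 0.0314) and Il1rl1, the receptor for interleukin-33 (1.61 ± 0.51, adjusted p = 0.0374), were called at day 7 in 7 of the 12 such fits each, and both calls were lost without any 1 of the controls or replicate 2 of day 7, that of Mitf also without replicate 1 and that of Il1rl1 also without replicate 3. Gata2 was lower at day 7 (-0.70 ± 0.13, adjusted p = 0.00304) and at day 28 (-0.53 ± 0.13, adjusted p = 0.0174, lost without control replicate 1 or day 28 replicate 2, with an adjusted p up to 0.0731). Its level in controls was 126 to 162 TPM, above the summed 35.1 to 52.0 TPM of the 8 mast cell genes there. The summed urothelial markers were lower at the same days, at 4536 to 5079 TPM at day 7 and 5171 to 6256 TPM at day 28, against 7585 to 8752 TPM in controls, and their part in the Gata2 values was not tested. Gata1, which acts with Gata2 in mast cell development, had 0 counts in all 12 libraries.

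Many genes rose on a list of IgE receptor signalling that also held surface proteins of mast cells. Of 17 listed, 15 were tested. Of those, 11 were higher at day 7, 4 at day 14 and 11 at day 28, with 0 lower at any day. The shares of all genes tested that were higher were 15.6%, 1.45% and 11%. The 4 at day 14 were Fcer1g, Syk, Btk and, named after its value was seen, Milr1. The 11 at day 7 took in the surface proteins Enpp3, Milr1, Cd200r1 and Mrgprx2, also named after their values were seen. Fcer1g, the gamma chain that the IgE receptor shares with the Fc receptors of macrophages and neutrophils, rose by 1.86 ± 0.23 at day 7 (adjusted p = 0.000297), 1.40 ± 0.23 at day 14 (adjusted p = 0.0166) and 2.10 ± 0.23 at day 28 (adjusted p = 0.000195). The kinases Syk and Btk rose by 1.12 ± 0.11 and 1.98 ± 0.23 at day 7 and by 1.46 ± 0.11 and 1.81 ± 0.23 at day 28, and the adaptor Gab2 by 0.72 ± 0.10 at day 7. Without any 1 of the controls the day 14 calls of Fcer1g, Syk and Btk were lost (adjusted p up to 0.109), and the count at day 14 fell to 0 at its lowest. These genes are used by many white blood cells. All 11 macrophage markers were higher at days 7 and 28 and 3 at day 14 (Tyrobp and Cd68 and, named after its value was seen, Lyz2), and their summed level was 627 to 708 TPM in controls, 2440 to 3435 TPM at day 7, 1268 to 2848 TPM at day 14 and 2176 to 3558 TPM at day 28. The part of macrophages in the genes of the IgE receptor list, in Srgn and in Hpgds was not tested.

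Markers of other granulocytes were read beside the mast cell genes. Of the 6 basophil markers, 4 were in the table and 0 could be tested. Mcpt8 and Prss34, known as basophil genes from the mouse, had 0 counts in all 12 libraries, Il4 had 2 counts and Il13 had 18. Their summed level was 0 to 0.325 TPM in controls, 0 TPM at day 7, 0 to 2.83 TPM at day 14 and 0 to 0.294 TPM at day 28. Of the 8 eosinophil markers, 5 were tested and 4 were higher at day 7, 0 at day 14 and 1 at day 28, summing to 12.5 to 15.8 TPM in controls, 22.7 to 702 TPM at day 7, 12.6 to 22.1 TPM at day 14 and 11.3 to 28.3 TPM at day 28. The eosinophil granule genes Epx, Prg2 and Prg3 had 5, 1 and 6 counts in all 12 libraries together. Those called at day 7 were Alox15, Il5ra (3.87 ± 0.99, adjusted p = 0.0144), Ccr3 (2.79 ± 0.91, adjusted p = 0.0416) and Siglec8 (1.97 ± 0.66, adjusted p = 0.0464). For Il5ra, Ccr3 and Siglec8 every day 7 library was above every control. Their calls were lost without control replicate 1 or 3, and those of Ccr3 and Siglec8 without further libraries too (adjusted p up to 0.133). Alox15, which other cells also make, was among the 4, at 8.84, 105 and 1001 CPM at day 7, against 8.81, 10.6 and 14.0 CPM in controls. Replicate 1 of day 7 lay within the controls, and replicate 3, the library with 2.89% haemoglobin counts, was far above the rest. In TPM, Alox15 was at 6.98, 81.8 and 692 at day 7, where the list summed to 22.7 to 702 TPM with a median of 95.7 TPM. Alox15 thus made up most of the sum in replicates 2 and 3 of day 7. The log2 fold change of 5.06 ± 1.23 (adjusted p = 0.0114) was 2.33 without day 7 replicate 3, and the call was lost without that library or control replicate 1 (adjusted p up to 0.0550), and the count at day 7 was 0 without control replicate 1. The 8 neutrophil markers summed to 1.29 to 3.07 TPM in controls and 15.6 to 49.8 TPM at day 7. Their sum was 5.19 to 378 TPM at day 14 and 41.6 to 72.9 TPM at day 28. At day 14 the median sum was 9.95 TPM, and the highest was that of replicate 3, where S100a9 alone was at 195 TPM. Of the 6 neutrophil markers tested, 1, 1 and 3 were called higher at days 7, 14 and 28. Without 1 library these counts were 1 to 6, 0 to 5 and 1 to 6. Every library of the day was above every control for 6, 4 and 6 of the 6 markers. The part of basophils in the mast cell genes was not tested, nor was that of eosinophils and neutrophils in Hdc and Hpgds.

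Genes that act on mast cell mediators changed in part. Aoc1, the diamine oxidase that breaks down histamine, had 0.14, 0.58 and 0.18 CPM in controls, 25.0, 17.6 and 7.20 CPM at day 7, 4.18, 15.0 and 2.51 CPM at day 14 and 4.64, 4.33 and 2.44 CPM at day 28. Every injured library was above every control, and the log2 fold change was 5.78 ± 0.84 at day 7 (adjusted p = 0.000688), 4.58 ± 0.82 at day 14 (adjusted p = 0.0223) and 3.65 ± 0.81 at day 28 (adjusted p = 0.00998). Without control replicate 2 the values were 6.67, 5.47 and 4.54, and without replicate 2 of day 14 the day 14 value was 3.47. Only the day 14 call depended on 1 library, as it was lost without any 1 of the controls (adjusted p up to 0.104). Of the 8 genes on the list of histamine and tryptase response, 6 were tested, and 2 of them were higher at day 7, with only Aoc1 higher at days 14 and 28. The other gene at day 7 was Hrh1, the H1 histamine receptor (1.17 ± 0.34, adjusted p = 0.0269), whose call was lost without control replicate 1 or 3 or day 7 replicate 2 or 3 (adjusted p up to 0.0912).

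Of 10 genes of prostaglandin and leukotriene synthesis, 8 were tested, with 3 higher and 1 lower at day 7, 0 higher and 1 lower at day 14 (Pla2g4a) and 1 higher (Alox5ap) and 2 lower at day 28 (Hpgd and Pla2g4a). Pla2g4a was named after its values were seen. Ptgs2, the inducible cyclooxygenase that supplies the substrate of Hpgds, rose by 2.28 ± 0.53 at day 7 (adjusted p = 0.00940), at which day the Hpgds value was -0.53. It was at 19.5, 65.0 and 155 CPM at day 7, against 18.0, 13.4 and 18.0 CPM in controls, and its value was 1.35 without day 7 replicate 3. Alox5ap, which presents arachidonic acid for leukotriene synthesis, rose by 1.19 ± 0.25 at day 7 (adjusted p = 0.00550). Alox5, its partner enzyme (1.00 ± 0.34, adjusted p = 0.0492), was the third gene higher at day 7, and its call held in 3 of the 12 fits that left out 1 library, needing each control and day 7 library (adjusted p up to 0.139). Hpgd, the enzyme that inactivates prostaglandins and is not Hpgds, was lower at day 7 (-0.86 ± 0.27, adjusted p = 0.0374) and day 28 (-1.12 ± 0.27, adjusted p = 0.0155). Its day 7 call was lost without any 1 of the controls or day 7 libraries (adjusted p up to 0.111), and its day 28 call without control replicate 2 or 3 (adjusted p up to 0.0575).

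Of 7 genes around chymase and angiotensin, 6 were tested. At day 7, 3 were higher (Ace, Ctsc and Agt) and 0 were lower. At day 14, 0 were higher and Agtr1a, an angiotensin receptor gene, was lower, and at day 28, 2 were higher (Ace and Ctsc) and Agtr1a was lower. The Agtr1a call was lost at day 14 without any 1 of the controls or of the day 14 libraries, and at day 28 without any 1 of the controls, replicate 2 or 3 of day 14 or replicate 1 or 3 of day 28 (adjusted p up to 0.127). The Agt call was lost without any 1 of the controls or replicate 1 or 3 of day 7 (adjusted p up to 0.206), and its log2 fold change of 3.22 ± 1.06 was 1.79 without day 7 replicate 1 and 3.85 without control replicate 3. Ace, the main enzyme that makes angiotensin II and a gene of endothelium and macrophages, rose by 2.19 ± 0.26 at day 7 (adjusted p = 0.000242) and by 1.08 ± 0.25 at day 28 (adjusted p = 0.0121, lost without control replicate 1, adjusted p = 0.0511). Ctsc, the peptidase that activates granule proteases in mast cells and neutrophils, rose by 0.71 ± 0.13 at day 7 (adjusted p = 0.00209) and by 0.99 ± 0.13 at day 28 (adjusted p = 0.000478).

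Among the 14870 other tested genes with a mean of at least 1 CPM, the 8 whose log2 CPM ran closest to the mean z-score of the mast cell genes over the 12 libraries were LOC100359972 (r = 0.95), Glipr1 (r = 0.91), Colec10 (r = 0.91), Rasgrp4 (r = 0.91), ENSRNOG00000054910.1 (r = 0.90), Cd300lb (r = 0.90), Mrgprb3 (r = 0.90) and Retnlg (r = 0.89). These r values are a description over 12 libraries that fall into 4 groups, share their library depth and were picked as the highest. Rasgrp4 is a Ras activator known from mast cells. Mrgprb3 belongs to the Mrgprb receptor family, of which Mrgprb2 is a mast cell receptor in the mouse. By its description, LOC100359972, the closest gene, is osteoclast-associated receptor-like. Glipr1 is GLI pathogenesis-related 1, Colec10 a collectin, Cd300lb a CD300 molecule-like family member and Retnlg resistin-like gamma. ENSRNOG00000054910.1 has no description. Which cells these 8 genes were expressed in was not tested. After each group's mean was taken off, the closest 5 were Cpxm1 (r = 0.97), S1pr4 (r = 0.95), Pgghg (r = 0.94), Wdr77 (r = 0.94) and Entpd1 (r = 0.92), and none of these was among the first 8.

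Within the 8 mast cell genes, the protease pairs had r of 0.87 to 0.94 over the 12 libraries, and of 0.41 to 0.84 once the group means were taken off. Tpsab1 then had r of -0.09 with Ms4a2 and -0.10 with Hdc. Hpgds had r of -0.24 to 0.14 with the other 7, yet 0.42 to 0.82 once the group means were taken off. Replicates high in the other genes thus tended to be high in Hpgds too, while the group means of Hpgds followed another course.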

How the data were processed

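RNA was sequenced as single reads of 50 bases from 12 ribosomal RNA-depleted bladder libraries, per the labels' protocols. Per the submitters' processing notes, the build was rn6 and the tools were HTSeq 0.11.2, HISAT2 2.1.0 and bcl2fastq. The roles of the tools and the use of strand in counting are not given in the sources used here. The authors deposited raw read counts per gene, per the file headers, and the values are unnormalized whole numbers. TPM (transcript levels scaled by gene length and library size) were also computed by the authors, per the file headers, and were used for levels between genes and for ratios. The deposited tables of non-coding and of single transcripts were not used.

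Tests on the counts used edgeR 4.0.16 (R 4.3.3). The filterByExpr filter used a minimum count of 10 and a minimum total of 15, normalization was by TMM, and a single quasi-likelihood fit to the 12 libraries served all 6 comparisons. Benjamini-Hochberg adjustment of p-values ran over all 17687 genes tested, with calls made below 0.05. Every adjusted p for a gene is from this test, unless DESeq2, another setting or a left-out library is named with it. The SE of a log2 fold change was taken from it and the F statistic, as their quotient after a square root of F. CPM use TMM factors, with a prior count of 0.5 where logged for correlations and SDs. Ratios were compared by exact permutation. The alternatives were DESeq2 1.42.0 and others named with the limits.

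Groups and replicate numbers came from the sample titles. The 8 genes and the other gene lists were chosen with earlier results of these data known, and some genes of those lists are not reported here. From each list up to 4 genes with the smallest p at day 7 were picked for naming, with Kit, Kitlg, Fcer1g, Srgn, Mcpt1, Mcpt2, Mcpt8 and Gata2 by name. Not all genes picked are reported, and some others were named after their values were seen.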

Additional observations from a re-analysis of the deposited data

Results flagged for a closer look

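Of the 8 genes, 3 differed between days after injury in a test of the difference itself. Cma1 averaged 12.9 CPM at day 14 and 30.4 CPM at day 7 (log2 fold change -1.24, adjusted p = 0.0223). Cma1 averaged 11.4 CPM at day 28 and 30.4 CPM at day 7 (-1.42, adjusted p = 0.0127). For Cpa3 the means were 27.6 CPM at day 28 and 66.1 CPM at day 7 (-1.26, adjusted p = 0.0451). Hpgds moved in the opposite direction, with 11.9 CPM at day 28 and 4.50 CPM at day 7 (1.41, adjusted p = 0.00293). The 3 falls rest on a day 7 group in which replicate 1 was high, at 48.4 CPM of Cma1 and 96.7 CPM of Cpa3, and without it the changes were -0.73, -0.92 and -0.88, of which only the Cma1 change between days 28 and 7 still passed.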

How the results depend on the processing

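Every alternative was run on all 8 genes: DESeq2, RLE factors, library totals alone, no expression filter, only the groups compared, a replicate block, and 12 fits each without 1 library. Leaving out 1 library of a group leaves it 2. The protease calls at day 7 held under all 18, as did those of Cma1, Tpsab1 and Tpsb2 at day 28. At day 14 they were less secure: the number of the 8 genes called ranged from 0 (without control replicate 1 or 2) to 5 (without day 14 replicate 2), and it was 1 without control replicate 3 or day 14 replicate 3, against 4 with all libraries. Between day 14 and day 7, 2 genes were called by DESeq2, 2 with library totals and 0 with only the groups compared, and 0 to 1 without 1 library. Between day 28 and day 14, DESeq2 called 1. Between day 28 and day 7, 2 to 4 genes were called over the alternatives, against 3. DESeq2 called 5, 6 and 5 of the 8 genes against control at days 7, 14 and 28. Of the 17687 genes tested it called 5516, 1360 and 4142 at those days, where edgeR called 4622, 433 and 3275.

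Over all genes, the count called at day 14 was 433 by edgeR and 1360 by DESeq2, and 16 to 579 without 1 library. Without 1 library it was 3061 to 4948 at day 7 (4622 with all), 1971 to 3580 at day 28 (3275), 1959 to 3706 between days 14 and 7 (3457), 261 to 1120 between days 28 and 14 (768) and 1954 to 3548 between days 28 and 7 (3310). DESeq2 called 1647 between days 28 and 14, and only the groups compared gave 42 there and 2195 between days 14 and 7. With library totals the median log2 fold change of all genes at day 7 moved by -0.13, and 2248 genes were called higher and 3135 lower in place of 2757 and 1865.

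Some uncalled values turned sign. Tpsb2 between days 14 and 7 was 0.0762 with library totals and -0.52 to 0.43 without 1 library. Without 1 library, the day 14 against day 7 values of Hdc were -0.81 to 0.17 and of Fcer1a -0.11 to 0.82, the day 28 against day 14 value of Tpsab1 -0.74 to 0.11, the day 28 against day 7 value of Ms4a2 -0.76 to 0.0085 and the day 28 against control value of Hdc -0.0873 to 0.58. Against control, the log2 ranges at day 14 were -0.17 to 0.44 for Kit, -3.08 to 3.67 for Mcpt1, -2.52 to 2.89 for Mcpt2 and -0.12 to 0.0661 for Gata2. They were -0.21 to 0.0695 for Kitlg at day 7, and at day 28 they were -0.000995 to 0.41 for Kitlg, -0.48 to 0.21 for Il1rl1 and -0.13 to 0.54 for Slc22a3. The causes were not tested.

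The labels do not say that equal replicate numbers mark a shared source. The deviations of same-numbered libraries had r of -0.02 to 0.14, over 0.1 in 4 of 18 pairs. Of the 12 libraries, 9 were closest to a library of their own number, though only 1 of the 3 libraries in each other group bears it. Whether equal numbers share a source was not tested. With the replicate block the numbers of the 8 genes called were 4, 3 and 4 against control at days 7, 14 and 28. They were 1 between days 14 and 7, 0 between days 28 and 14 and 2 between days 28 and 7. Cpa3 lost its call at day 14 (adjusted p = 0.0571) and between days 28 and 7 (adjusted p = 0.0724), and 4788, 460 and 3440 of all genes were called against control at days 7, 14 and 28.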
